A study of Mus musculus with 30 samples.

Results

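The genes described here were 10 Krüppel-like factors (KLFs) expressed in mouse gastrocnemius muscle, chosen by name and compared between mice kept on a fixed light-dark schedule and mice kept on chronic jet lag. They were Klf2, Klf4, Klf5 and Klf6, which are known to respond to flow, stress or injury, then Klf9, Klf10 and Klf15, which are linked to the circadian clock and glucocorticoids, and Klf3, Klf11 and Klf13, which stand outside both sets. All 10 passed the expression filter and were among the 12030 genes tested, out of 56951 gene symbols in the tables. No measured value was used to choose them, although results of these data were known when they were chosen.

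Poly(A) RNA was sequenced from 1 gastrocnemius sample per mouse, with the plantaris included because the muscles are hard to separate. All mice were wild-type male C57BL/6J animals caged singly with a running wheel, and all had been held in constant darkness for a time before the schedules began. The LD group (n = 14) stayed on a fixed cycle of 12 h light and 12 h dark, and in the ADV group (n = 16) the same cycle was advanced by 8 h every 4 days, in both cases for 64 weeks. Tissue was taken during the day, while the ADV mice were on the same light cycle as the LD mice, but the hour at which each mouse was sampled is not in its label. Each library came from a different mouse, so the errors given below are spreads between animals. The libraries held 19015401 to 28512674 reads on annotated exons in LD and 18875468.5 to 25699603.5 in ADV, where mates count 0.5 each.

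KLFs are transcription factors that bind GC-rich and CACCC-type sites through zinc fingers at their C terminus, and they act as activators or repressors according to the cofactors that they recruit. In striated muscle KLF15 is known for control of amino acid and lipid use and of nitrogen balance, and both KLF9 and KLF15 are direct glucocorticoid receptor targets. KLF2 and KLF4 are best known from endothelial cells, where laminar flow induces them, and KLF4 and KLF6 also belong to the early response to stress and injury.

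Promoters are shown first for some of the members whose levels moved together across mice, described further below: Klf2 with Klf4 and Klf9 with Klf15. Klf6, which moved with Klf2 and Klf4 in ADV, is not printed. Its window holds an E-box that begins 43 bases upstream. RefSeq windows (GRCm38.p6) were given for 8 of the 10 members, not for Klf5 and Klf10. The 250 bases upstream of each RefSeq start site were placed in GRCm39 by an exact match that occurred once on the chromosome. Capitals mark the E-box CACGTG, bound by CLOCK and BMAL1 among other factors, the letters TGACG at the core of the cAMP response element, and the AP-1 letters TGANTCA, each searched on both strands.
Klf4, chr4:55532476-55532725, minus strand: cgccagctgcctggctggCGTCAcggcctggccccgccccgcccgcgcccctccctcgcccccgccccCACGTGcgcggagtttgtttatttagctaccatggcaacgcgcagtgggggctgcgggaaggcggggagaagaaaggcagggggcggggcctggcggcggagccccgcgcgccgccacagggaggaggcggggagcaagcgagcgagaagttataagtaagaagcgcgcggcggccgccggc
Klf2, chr8:73072656-73072905, plus strand: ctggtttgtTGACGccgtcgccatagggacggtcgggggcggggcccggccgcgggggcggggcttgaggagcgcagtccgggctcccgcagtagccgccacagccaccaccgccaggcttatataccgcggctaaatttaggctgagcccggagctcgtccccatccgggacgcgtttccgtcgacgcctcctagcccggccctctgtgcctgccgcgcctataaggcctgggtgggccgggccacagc
Klf15, chr6:90439308-90439557, plus strand: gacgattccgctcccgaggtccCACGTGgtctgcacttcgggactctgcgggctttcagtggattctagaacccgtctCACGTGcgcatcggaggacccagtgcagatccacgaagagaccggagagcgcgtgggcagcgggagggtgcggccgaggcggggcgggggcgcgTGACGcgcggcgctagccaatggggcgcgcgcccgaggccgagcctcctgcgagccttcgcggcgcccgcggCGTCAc
Klf9, chr19:23118340-23118589, plus strand: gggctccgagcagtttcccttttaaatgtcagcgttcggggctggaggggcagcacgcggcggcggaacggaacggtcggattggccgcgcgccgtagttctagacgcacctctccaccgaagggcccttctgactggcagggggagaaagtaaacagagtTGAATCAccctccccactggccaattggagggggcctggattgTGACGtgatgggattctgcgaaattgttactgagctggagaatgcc
The Klf2 window runs 29 bases past the start of the gene model that was counted. The Klf15 window holds E-boxes that begin 228 and 172 bases upstream of its start, and the Klf4 window holds 1 that begins 182 bases upstream. The Klf9 window has no E-box but has an AP-1 match 89 bases and a TGACG match 46 bases upstream.

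Over the 8 windows, the E-box was found in 4 (Klf4, Klf6, Klf11 and Klf15), against 6.02% of all 32851 RefSeq windows of this length. TGACG was found in 5 of 8 against 17.8% of all windows, and AP-1 in 1 of 8 against 6.75%. GC-rich letters were common: the GC box GGGCGG was present in 7 of 8 windows (32.7% of all) and the KLF-type letters CCNCNCCC, which can overlap it, in 7 of 8 (45.9% of all), Klf9 being the member without either. None of the 8 held the full element TGACGTCA (1.55% of all windows), the D-box letters TTATGTAA or TTACGTAA (0.931%), a RORE (0.177%), a full glucocorticoid response element (0.0365%), a CArG box (1.47%) or a heat shock element (0.466%). These matches describe the letters of short windows, whose GC content was between 59.6% and 78.4%, and no binding was measured. The shares over all windows were not matched for GC content, so they do not show whether the members exceed other windows as GC-rich.

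The members differed widely in level. Expression was given in FPKM, fragments scaled to exon length and to the number of mapped reads, which allows levels of different genes to be compared. In LD mice Klf9 was the most abundant, with a mean of 42.7 FPKM, and its mean over all 30 mice lay above that of 90.2% of the genes tested. Klf15 followed with 20.9 FPKM. Klf9 exceeded Klf15, and Klf15 exceeded Klf6, in each of the 14 LD and 16 ADV mice.

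Below these came a group of similar level in LD: Klf6 (7.40 FPKM), Klf13 (6.92), Klf2 (6.67), Klf4 (6.39) and Klf10 (4.83), whose ranges overlapped and whose neighbours changed places from mouse to mouse. Klf6 exceeded Klf13 in 8 of 14 LD mice, and Klf4 exceeded Klf10 in 7 of 14. Klf10 exceeded Klf3 (3.56 FPKM) in 8 of 14, whereas Klf3 exceeded Klf11 (1.44 FPKM) in all 30 mice. Klf5 was the lowest, with 0.971 FPKM. In ADV mice the order was the same at both ends, but Klf2 (10.2 FPKM) and Klf4 (9.68) came next after Klf15, ahead of Klf6 (7.69) and Klf13 (6.50). Klf13 exceeded Klf2 in 9 of 14 LD mice and in 3 of 16 ADV mice.

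**Figure D1:**
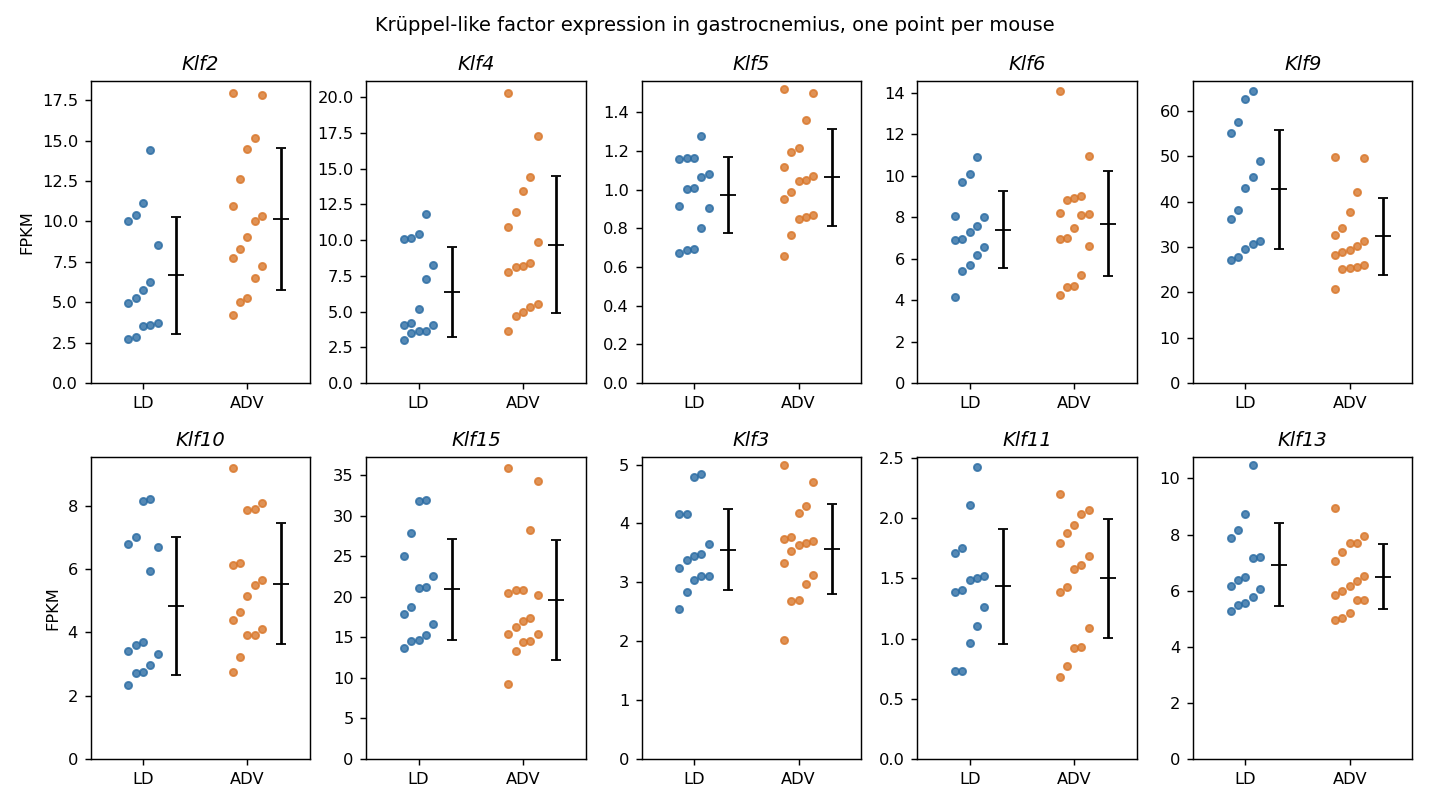
Expression of the 10 Krüppel-like factors in FPKM, 1 panel per gene with its own vertical axis starting at 0. Each point is 1 mouse (14 LD in blue, 16 ADV in orange), the horizontal tick is the group mean and the bar is ± 1 SD. The groups overlap in every panel, with 4 ADV mice above all LD mice for Klf2, 5 for Klf4, and 5 ADV mice below all LD mice for Klf9.

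The comparison of ADV with LD asked whether chronic jet lag was accompanied by altered KLF expression in the muscle. None of the 10 members passed a false discovery rate (FDR) of 0.05 in edgeR's quasi-likelihood test adjusted over all 12030 genes, whereas 10.8% of all genes tested did (5.61% higher and 5.2% lower in ADV, and 2.09% with a fold change over 1.3 as well). Unadjusted p was under 0.05 for 3 members, Klf2, Klf4 and Klf9, that is 3 of 10 against 30.1% of all genes. DESeq2 on the same counts called 1 member, Klf9, beside 1679 of all 12030 genes, and limma on log2(FPKM + 0.1) called 0, beside 1308. DESeq2 is the test that the study used, with limits of FDR under 0.05 and a fold change over 1.3. Klf9 met both limits in the DESeq2 fit made here (log2 fold change -0.42, DESeq2 FDR = 0.0334). The stress-linked members and the clock-linked members were set side by side without a test. All 4 stress-linked members had a positive log2 fold change (ADV over LD), as had 6111 of the 12030 genes, and the median of the 4 was 0.35. The largest values were those of Klf2 and Klf4, which moved together across mice. Of the 3 clock and glucocorticoid linked members, 1 was positive and 2 negative, with a median of -0.11. The median was -0.02 over the other 3 members, 0.05 over all 10 and 0.00 over all genes tested.

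**Figure D2:**
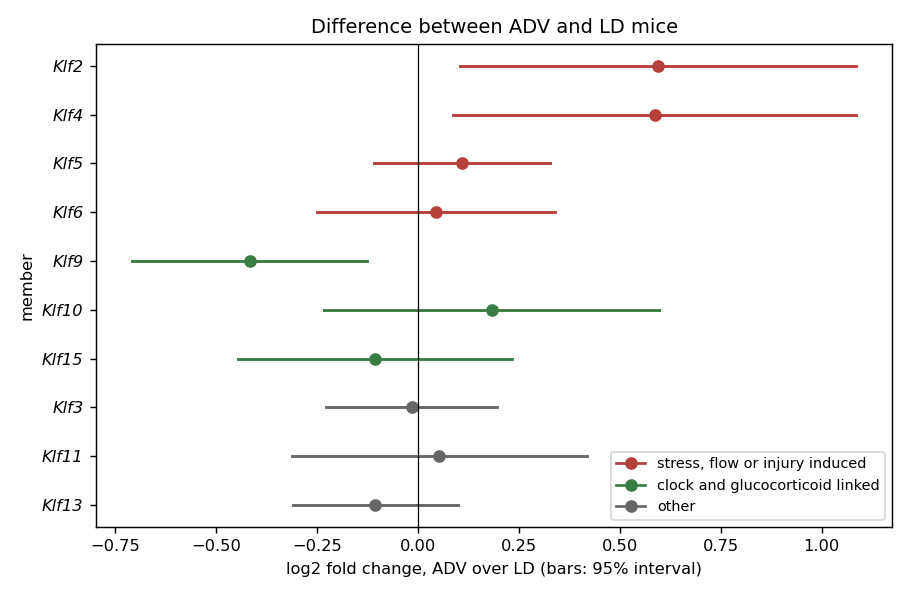
Log2 fold change of each Krüppel-like factor, ADV over LD, from edgeR. Points are the estimates, bars the 95% intervals and colours the role of the gene. The intervals of Klf2 (0.10 to 1.08), Klf4 (0.09 to 1.09) and Klf9 (-0.71 to -0.13) leave out 0, and none of the 10 passed an FDR of 0.05.

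Among the stress-linked members, Klf2 and Klf4 had the largest values. Klf2 (ENSMUST00000067912.8, chr8:73072877-73075500, plus strand) measured 2.76 to 14.4 FPKM in LD with a median of 5.54, and 4.20 to 17.9 in ADV with a median of 9.52. The groups overlapped, yet 13 of 16 ADV mice exceeded the median of LD and 4 exceeded the highest LD mouse. The means were 6.67 ± 3.64 FPKM (SD, n = 14) in LD and 10.2 ± 4.39 (SD, n = 16) in ADV. The fold was 1.51 (95% interval 1.08 to 2.12), a log2 difference of 0.59 with a standard error of 0.24, and it missed the threshold (edgeR FDR = 0.0971).

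Klf4, a factor that restrains proliferation and inflammation in vessel walls and is used in reprogramming to pluripotency, lies on chr4:55527143-55532466, minus strand (ENSMUST00000107619.3). It measured 3.03 to 11.8 FPKM in LD, median 4.71, and 3.64 to 20.3 in ADV, median 8.28. Of the ADV mice, 15 of 16 exceeded the LD median and 5 exceeded the highest LD value, so the groups again overlapped. The mean was 6.39 ± 3.15 FPKM (SD, n = 14) in LD and 9.68 ± 4.78 (SD, n = 16) in ADV. The fold was 1.50 (95% interval 1.06 to 2.12) with edgeR FDR = 0.107. ADV replicate 25 had the highest and ADV replicate 36 the lowest ADV value of both Klf2 and Klf4.

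Klf5, a factor of injured smooth muscle and of proliferating epithelium, and Klf6, an early gene of tissue injury, showed little difference. Klf5 (ENSMUST00000005279.8, chr14:99536127-99552472, plus strand) measured 0.971 ± 0.197 FPKM (SD, n = 14) in LD and 1.06 ± 0.249 (SD, n = 16) in ADV, a log2 fold change of 0.11 (95% interval -0.11 to 0.33, edgeR FDR = 0.518). Klf6 (ENSMUST00000000080.8, chr13:5911481-5920393, plus strand) measured 7.40 ± 1.86 in LD and 7.69 ± 2.51 in ADV, a log2 fold change of 0.04 (95% interval -0.25 to 0.34, edgeR FDR = 0.864). The difference in each was smaller than the spread between mice, and for either gene 9 of 16 ADV mice exceeded the LD median. The highest Klf6 level, 14.1 FPKM, was that of ADV replicate 21.

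Because Klf2 is GC-rich (62.1% of its exon bases), the libraries' dependence on GC content was measured beside it. The slope of log2 expression per 10 points of GC ran from -0.165 to 0.0405 in LD libraries (median -0.0731) and from -0.0774 to 0.325 in ADV libraries (median 0.0271). With the GC trend taken off, the log2 fold change was 0.46 for Klf2 (edgeR FDR = 0.231) and 0.52 for Klf4 (FDR = 0.188), and -0.40 for Klf9 (FDR = 0.0885). The part of GC content in the values as deposited was not otherwise tested.

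Of the clock and glucocorticoid linked members, Klf9 had the value farthest from 0, with a lower mean in ADV. KLF9, a repressor of proliferation that follows both glucocorticoids and the clock, is encoded at chr19:23118590-23145498, plus strand (ENSMUST00000036884.3). Klf9 measured 27.2 to 64.4 FPKM in LD, median 40.6, and 20.8 to 49.9 in ADV, median 29.9. Most ADV mice were low: 3 of 16 exceeded the median of LD, none exceeded its maximum and 5 were below its minimum. The means were 42.7 ± 13.2 FPKM (SD, n = 14) and 32.4 ± 8.53 (SD, n = 16). The fold was 0.749 (95% interval 0.612 to 0.917), a log2 difference of -0.42 with a standard error of 0.14, close to the threshold but not past it (edgeR FDR = 0.0541).

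The call on Klf9 depended on the fit. DESeq2 gave FDR = 0.0334, and a stricter filter on low genes gave 0.0494 by edgeR. Leaving out 1 library at a time gave FDR values of 0.0264 to 0.0965, under 0.05 in 8 of 30 fits, those without LD replicate 21, 22, 23, 26 or 34 or ADV replicate 30, 31 or 35, and the log2 fold change stayed between -0.47 and -0.35. With a score of 12 clock genes as a covariate the log2 fold change of Klf9 was -0.04 (FDR = 0.954), that of Klf2 0.32 and that of Klf4 0.37. Those of Klf10 and Klf11 were farther from 0 than without the score, at 0.68 (FDR = 0.334) and 0.37 (FDR = 0.567), and the other 5 members lay between -0.08 and 0.23. The score ran from -3.17 to 1.10 in LD mice and from -1.33 to 2.30 in ADV mice, and in that fit 0 of 12030 genes passed in edgeR (1427 had an unadjusted p under 0.05), so schedule and clock state cannot be told apart in it. Klf9 shares 4.22% of its exon bases with Gm56648, a long non-coding RNA on the opposite strand, and the strand setting of the counting is not given in the sources used here.

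Klf15, which activates branched-chain amino acid breakdown in muscle, showed no such shift. Klf15 (ENSMUST00000032174.12, chr6:90439558-90452220, plus strand) measured 13.7 to 31.97 FPKM in LD, median 19.96, and 9.27 to 35.97 in ADV, median 17.2. The ADV values spread on both sides of the LD range, with 2 of 16 mice above it and 2 below it. The means were 20.9 ± 6.23 (SD, n = 14) and 19.6 ± 7.38 (SD, n = 16), and the log2 fold change was -0.11 (95% interval -0.45 to 0.23, edgeR FDR = 0.700).

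Klf10, the TGF-β-inducible early gene that is also a clock output in other tissues, lies on chr15:38294657-38300950, minus strand (ENSMUST00000074043.7). It measured 2.35 to 8.21 FPKM in LD, median 3.64, and 2.76 to 9.21 in ADV, median 5.31. The LD mice lay in separate sets, 8 mice at 2.35 to 3.69 FPKM and 6 mice at 5.94 to 8.21, and 14 of 16 ADV mice exceeded the LD median although only 1 exceeded the LD maximum. The means were 4.83 ± 2.17 (SD, n = 14) and 5.54 ± 1.91 (SD, n = 16), a log2 fold change of 0.18 (95% interval -0.23 to 0.60, edgeR FDR = 0.577).

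Klf3, a repressor that recruits CtBP, Klf11, a relative of Klf10 also induced by TGF-β, and Klf13, a close relative of Klf9, did not pass the test either. Klf3 (ENSMUST00000165536.8, chr5:64960731-64990244, plus strand) had 3.56 ± 0.692 FPKM in LD (SD, n = 14) and 3.57 ± 0.767 in ADV (SD, n = 16), with a log2 fold change of -0.02 and a 95% interval of -0.23 to 0.20. Klf11 (ENSMUST00000020982.7, chr12:24701273-24712788, plus strand) had 1.44 ± 0.479 in LD and 1.50 ± 0.492 in ADV, with a log2 fold change of 0.05 and an interval of -0.31 to 0.42. Klf13 (ENSMUST00000063694.10, chr7:63536099-63588663, minus strand) had 6.92 ± 1.48 in LD and 6.50 ± 1.17 in ADV, with a log2 fold change of -0.11 and an interval of -0.31 to 0.10. The edgeR FDR was 0.938, 0.869 and 0.496, respectively, and the intervals of all 3 leave out a change of 1.5-fold or more. Klf3 shares 8.13% of its exon bases with the lncRNA Gm20033 on the other strand, and no overlap was found for the 8 members other than Klf3 and Klf9.

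Differences between chosen members of the sets were also read within each mouse, for Klf4 with Klf9 and Klf2 with Klf15. They do not stand for the sets as a whole. The log2 fold change of the clock-linked Klf10 (0.18) was above those of the stress-linked Klf5 (0.11) and Klf6 (0.04). The difference log2 Klf4 minus log2 Klf9 ran from -4.10 to -1.20 in LD, median -3.22, and from -3.34 to -0.33 in ADV, median -1.60. The difference log2 Klf2 minus log2 Klf15 had medians of -1.74 in LD and -0.85 in ADV. For 1 pair within each set the values were as follows. Klf2 and Klf4 stayed within 0.63 of each other on the log2 scale in all 30 mice, with an SD of 0.31 in either group, and log2 Klf9 minus log2 Klf15 had a median of 1.07 in LD and 0.82 in ADV. These are descriptions of members whose single values are given above and were not tested.

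Relations between genes were examined within each group, over mice. The mice of a group were sampled across the day, so the sampling hour also varied within each group. Its part in the relations among members was not tested. Among the members themselves 45 pairs were computed in LD and 45 in ADV, on log2(FPKM + 0.1) with permutation tests adjusted over the 90 relations, a set of relations chosen after seeing the data. A relation was kept where Pearson's r, Spearman's rho and r without the 2 mice farthest from the median of the x gene all passed an adjusted p of 0.05. The 9 LD pairs with Klf10 are not read, because the LD mice lay in separate Klf10 sets. Klf4 had a smaller gap in LD, between 5.17 and 7.28 FPKM. All criteria held for 2 pairs in LD and 4 in ADV. Only Klf2 with Klf4 held in both groups.

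Klf2 and Klf4 rose and fell together across mice. Pearson's r was 0.915 in LD (permutation p = 2e-05, adjusted 0.0006, rho = 0.895, adjusted 0.00225, n = 14) and 0.899 in ADV (permutation p = 2e-05, adjusted 0.0006, rho = 0.918, adjusted 0.0009, n = 16). Without the 2 farthest mice r was 0.891 and 0.858. In ADV both also followed Klf6, with r = 0.747 for Klf2 (adjusted permutation p = 0.0121, rho = 0.859) and r = 0.785 for Klf4 (adjusted permutation p = 0.00877, rho = 0.888). In LD the same pairs had r = 0.681 and 0.537, and these did not pass every criterion.

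Klf9 and Klf15, the pair of glucocorticoid targets, moved together in ADV (r = 0.885, adjusted permutation p = 0.0006, rho = 0.762, adjusted 0.0126, n = 16) and had r = 0.726 in LD (adjusted permutation p = 0.033), where the relation no longer passed without the 2 farthest mice (r = 0.585, adjusted 0.2). Of the pairs across the sets, 1 met all criteria. In LD mice Klf4 was high where Klf9 was low (r = -0.831, adjusted permutation p = 0.0121, rho = -0.798, adjusted 0.0126, n = 14), and without the 2 farthest mice r was -0.777 with an adjusted p of 0.0498, just inside the limit. This r spans the Klf4 gap. The 6 LD mice above the gap (Klf4 7.28 to 11.8 FPKM) had Klf9 of 27.2 to 38.1 FPKM. The 8 mice below it (Klf4 3.03 to 5.17) had Klf9 of 36.2 to 64.4. The relation among the mice on either side of the gap was not tested. In ADV, Klf4 with Klf9 had r = -0.343 (adjusted permutation p = 0.398, n = 16). Whether the relation differed between LD and ADV was not tested. Taking off each library's linear GC trend left these relations at r = 0.914 for Klf2 with Klf4 and -0.832 for Klf4 with Klf9 in LD, and at 0.904 for Klf2 with Klf4 and 0.918 for Klf9 with Klf15 in ADV.

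**Figure D3:**
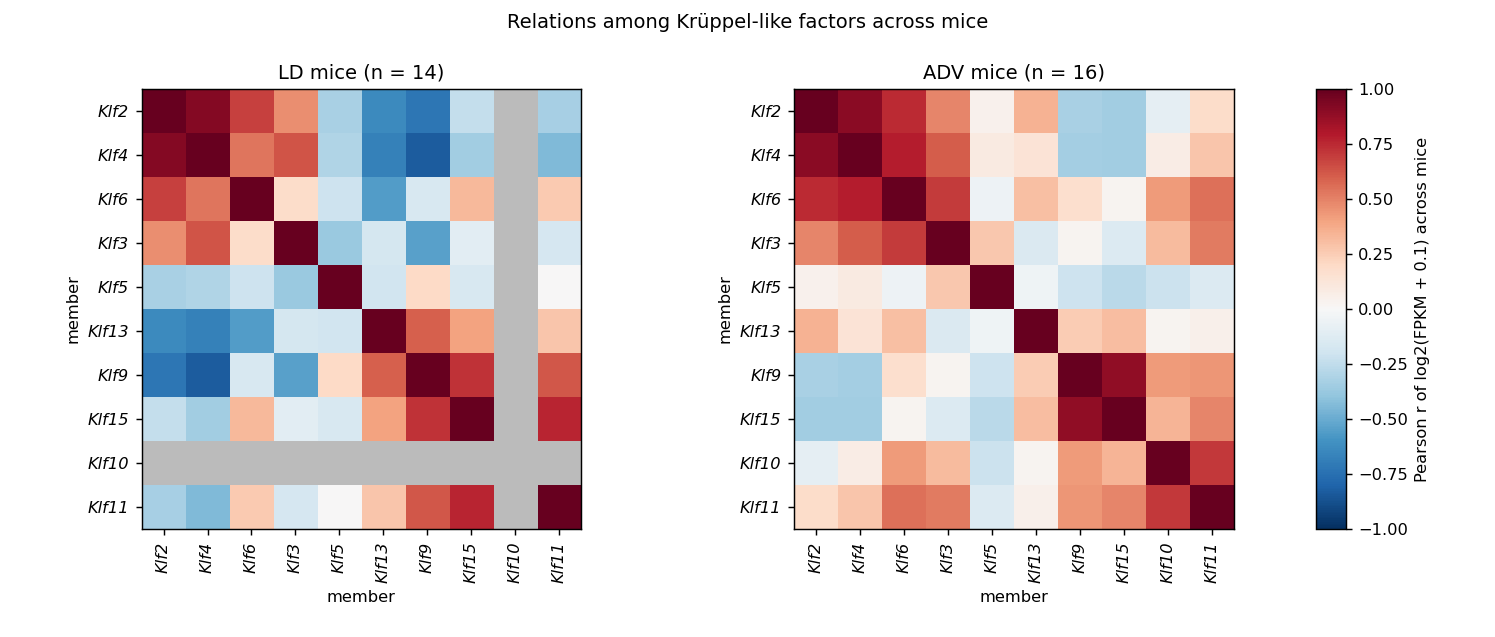
Pearson's r between Krüppel-like factors across the 14 LD mice and the 16 ADV mice, on log2(FPKM + 0.1), red for positive and blue for negative. Klf2, Klf4 and Klf6 form a red corner in either group and Klf9 with Klf15 another. Red is not confined to these: in LD, Klf15 with Klf11 had r = 0.761 and Klf4 with Klf3 r = 0.631, neither of which met all criteria. The blue between Klf4 and Klf9 is deeper in LD (r = -0.831) than in ADV (r = -0.343), a difference that was not tested. Klf10 is grey in LD, where the mice lay in separate Klf10 sets.

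Each member was then related to 3 genes outside the family within each group, 60 relations in all: Dbp, a clock output gene, Fos, an immediate early gene, and Fkbp5, a glucocorticoid target. By Pearson's r 8 of the 60 passed an adjusted p of 0.05, of which 2 (LD Fkbp5 with Klf9 and with Klf15) pool separate sets of mice and are given within sets only. By Spearman's rho 1 passed, and after leaving out the 2 mice farthest from the median of the x gene 0 of the Pearson values did. None of the Pearson values below therefore passed without those mice.

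In LD, Dbp ranged from 3.36 to 56.9 FPKM, with replicate 34 alone at the low end and the next mouse at 11.7. Klf9 was higher where Dbp was higher (r = 0.688, adjusted permutation p = 0.0316, rho = 0.688, adjusted 0.0849), and Klf4 was lower (r = -0.771, adjusted permutation p = 0.0105, rho = -0.657, adjusted 0.0929). Klf3 was lower as well (r = -0.791, adjusted permutation p = 0.0105, rho = -0.846, adjusted 0.0138). Without the 2 farthest mice r was 0.752, -0.791 and -0.799 in this order, no smaller than before for any of the 3, while the adjusted p was 0.0704, 0.0538 and 0.0538 with n = 12 in place of 14 in the permutation test. In ADV, where Dbp kept to 3.98 to 17.8 FPKM, r was -0.0834 for Klf9, 0.157 for Klf4 and 0.440 for Klf3, none past the permutation test (adjusted p = 0.827, 0.717 and 0.312), and the difference between the groups was not tested. The sampling hour of a mouse was not known, and its part in these relations was not tested.

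Fos ranged from 1.61 to 41.5 FPKM in ADV mice, against 0.660 to 4.57 in LD mice. In ADV, Klf4 was higher where Fos was higher (r = 0.726, adjusted permutation p = 0.0206, rho = 0.671, adjusted 0.0632, n = 16), and without the 2 farthest mice r was 0.690 (adjusted p = 0.0704).

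**Figure D4:**
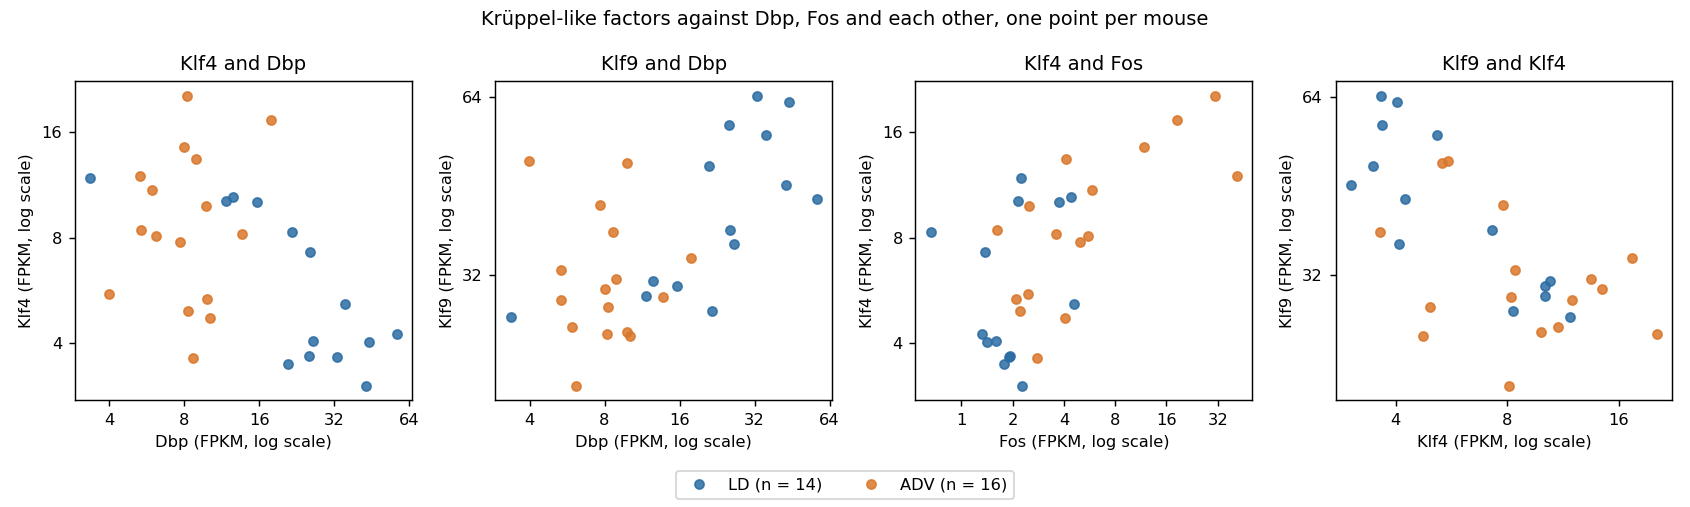
Klf4 against Dbp, Klf9 against Dbp, Klf4 against Fos and Klf9 against Klf4, in FPKM on log2-spaced axes, 1 point per mouse (14 LD in blue, 16 ADV in orange). In LD the points of Klf4 run down with Dbp (r = -0.771) and those of Klf9 run up (r = 0.688), the ADV mice gather at low Dbp, and the ADV points of Klf4 run up with Fos (r = 0.726).

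Fkbp5 split the LD mice into 2 sets of 7, at 7.48 to 10.5 FPKM and at 20.8 to 54.0 FPKM, so no pooled correlation is given for LD. Within the lower set, r with Fkbp5 was 0.0918 for Klf9 (exact permutation p = 0.845) and 0.143 for Klf15 (exact permutation p = 0.736). Within the higher set it was 0.729 for Klf9 (exact permutation p = 0.0373, adjusted over these 4 values 0.149) and 0.562 for Klf15 (exact permutation p = 0.192). The sets were defined from the data and are not groups of the study. In ADV, Fkbp5 went with Klf13 (r = 0.707, adjusted permutation p = 0.0206, rho = 0.712, adjusted 0.0576) and against Klf3 (r = -0.653, adjusted permutation p = 0.0457, rho = -0.612, adjusted 0.0929). Without the 2 farthest mice r fell to 0.472 for Klf13 and stayed at -0.653 for Klf3 (adjusted p = 0.277 and 0.139).

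The genes whose levels followed those of 4 members most closely over the 30 mice, after each group's mean was removed, were looked up among 10988 genes with a mean over 50 reads. For Klf4 they were Klf2 (r = 0.902), Ppp1r10, a targeting subunit of protein phosphatase 1 (r = 0.897), and Samd4b, an RNA-binding protein (r = 0.883). For Klf9 they were Galnt15, a glycosyltransferase (r = 0.930), Plin4, a lipid droplet coat protein (r = 0.907), and Gucd1 (r = 0.897). For Klf15 they were the kinase gene Pim3 (r = 0.927), the transcription factor gene Foxo3 (r = 0.849) and Trim63, the muscle ubiquitin ligase MuRF1 (r = 0.843). Klf10 followed Txnip, the thioredoxin-interacting protein, with r = 0.867, ahead of Klf11 (r = 0.684) and the chromatin factor gene Asxl1 (r = 0.663), values that include the separate Klf10 sets of the LD mice. Of the genes named here, Samd4b was the only one past the threshold between LD and ADV by edgeR (0.25 on the log2 scale, FDR = 0.0217). The coefficients are descriptions.

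Genes around the members were read from gene lists, by counts beside the 10.8% of all genes that passed. Of the other Krüppel-like and Sp factors, which share the same type of DNA-binding domain, 7 of 16 were expressed and none passed. They included Sp3, the most abundant, with 5.21 ± 0.464 FPKM in LD and 4.73 ± 0.787 in ADV (log2 fold change -0.15, edgeR FDR = 0.157). The median log2 fold change of the 7 was -0.15. Of 9 genes linked to KLF2 and KLF4 in endothelium, 7 were expressed and none passed. Thbd, which encodes the anticoagulant receptor thrombomodulin, was the most abundant, with 6.22 ± 1.80 FPKM in LD and 7.38 ± 1.78 in ADV (log2 fold change 0.23, edgeR FDR = 0.227).

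Immediate early genes are induced within minutes of many stimuli. Of 17 expressed, 11 rose in ADV and none fell, with a median log2 fold change of 0.47. Atf3, a stress-induced repressor, rose from 5.49 ± 4.598 to 29.7 ± 32.1 FPKM (log2 fold change 2.43, edgeR FDR = 0.00337), and Btg2, which restrains proliferation, rose from 6.26 ± 1.95 to 12.8 ± 7.40 (1.02, FDR = 0.00678). Fos, given because it was related to the members above, rose from 2.24 ± 1.17 to 9.03 ± 11.6 (2.01, edgeR FDR = 0.00694). The AP-1 genes Jun (0.51, FDR = 0.00411) and Jund (0.69, FDR = 0.00411) rose as well. Nr4a1, a nuclear receptor and the most abundant of the list, had a value of 0.02 on this scale (FDR = 0.958).

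Of the 18 clock genes, 4 rose and 8 fell. The repressor genes Nfil3 (log2 fold change 1.28, edgeR FDR = 0.000489) and Cry1 (0.54, FDR = 0.00142) rose. Dbp, an activator that NFIL3 opposes, fell from 26.8 ± 14.5 to 8.60 ± 3.39 FPKM (-1.66, FDR = 0.000482), and Nr1d2, which encodes REV-ERBβ, fell as well (-0.70, FDR = 0.000153). Tef, the most abundant, fell by 0.28 on the log2 scale (FDR = 0.00485). Of the 13 glucocorticoid receptor and target genes none passed by edgeR, and their median log2 fold change was 0.01. Tsc22d3, which encodes GILZ and was the most abundant, had 82.6 ± 16.1 FPKM in LD and 90.5 ± 22.9 in ADV (log2 fold change 0.12, FDR = 0.552).

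Of 12 metabolic genes linked to KLF15, 1 rose and none fell. Bckdha, a subunit of the branched-chain keto acid dehydrogenase, rose from 66.7 ± 9.06 to 79.9 ± 8.83 FPKM (log2 fold change 0.24, edgeR FDR = 0.0107). Pdk4, a kinase that restrains glucose oxidation and the most abundant of the list, varied widely, with 301 ± 215 FPKM in LD and 353 ± 250 in ADV (0.22, FDR = 0.730). The median of the 12 was 0.12.

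The tissue was muscle by its markers, since the 8 skeletal muscle genes summed to 61765 to 84905 FPKM in LD and 62270 to 84943 in ADV and none of them passed the test. The marker counts that follow stand beside the 10.8% of all genes tested that passed, and were not tested against that share. KLF2 and KLF4 are known from endothelium, and 2 of 9 endothelial markers rose in ADV: Emcn (log2 fold change 0.27, edgeR FDR = 0.00945) and Pecam1 (0.16, FDR = 0.0323). The 9 summed to 79.7 to 113 FPKM in LD and 92.4 to 124 in ADV, none was near 0, and their median log2 fold change was 0.13, against 0.59 for Klf2 and 0.59 for Klf4. Tagln rose among 4 smooth muscle markers (0.29, edgeR FDR = 0.0328, summed 28.5 to 54.8 in LD and 32.3 to 66.8 in ADV), and Pdgfra fell among 5 fibroblast markers (-0.24, edgeR FDR = 0.0194, summed 256 to 334 in LD and 220 to 348 in ADV). No marker of leukocytes (5 tested), adipocytes (4), Schwann cells (4), red cells (3) or satellite cells (1) passed, and the 4 adipocyte markers had a median log2 fold change of 0.83 with sums from 7.49 to 70.3 in LD and 5.25 to 204 in ADV. In bulk tissue fewer cells of a type and less RNA per cell cannot be told apart, and the part of these cell types in the KLF values was not tested.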

How the data were processed

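Gastrocnemius RNA of 14 LD and 16 ADV mice was sequenced by the submitters as poly(A)-enriched, stranded, 101-base paired reads. According to the study's methods and processing notes, reads were trimmed, mapped to GRCm39 with STAR (2.7.10a), filtered at a mapping quality of 10 and assigned to exons of 57186 gene models with HOMER (4.11). The authors deposited estimated counts, in which each mate counts 0.5, and FPKM per gene model and mouse. A kit that keeps strand was used, but the strand setting of the counting is not given in the sources used here.

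Counts were rounded, since 14.8% were not whole. Each symbol kept its longest row with a mean over 20 reads, and genes with a mean FPKM over 0.5 were tested (12030). The main test was edgeR (4.0.16, R 4.3.3) with TMM scaling and quasi-likelihood F tests on group alone, with FDR values adjusted by Benjamini-Hochberg over all genes tested. DESeq2 (1.42.0), limma (3.58.1), other scalings and filters, a replicate block, a GC offset and a clock score covariate were alternatives. The score was the mean z-score of 5 clock genes minus that of 7 others. Correlations used log2(FPKM + 0.1) and two-sided permutation tests with 100000 resamples, or all permutations for sets of 7. The fits were tested on simulated data with known changes. Depth was similar in the groups, and replicates differed by more than counting noise (lowest chi-square per degree of freedom 10.6).

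Named genes were the 10 members, up to 4 genes per list with the smallest p among those with FDR under 0.05, the most abundant gene of each list, Dbp, Fos and Fkbp5, and the 3 genes closest to each of Klf4, Klf9, Klf10 and Klf15. The members, lists and tests were chosen with earlier results of these data known. Relations among members, their GC check and the Fkbp5 sets were added after the data were seen. The marker genes named are those that passed.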

Additional observations from a re-analysis of the deposited data

How the results depend on the processing

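None of the 10 Krüppel-like factors passed in edgeR (3 had an unadjusted p under 0.05). DESeq2 and the filter at a mean over 50 reads and FPKM over 1 each gave 1, which was Klf9. Over all genes these fits called 1679 of 12030 and 1343 of 10245. Leaving out 1 library at a time gave 0 to 2 members. The 2 came without LD replicate 22, where Klf2 passed beside Klf9 (0.73 on the log2 scale, edgeR FDR = 0.0408). Over all genes, 1301 passed, against 601 with the GC content trend removed and 0 once the score of clock genes entered as covariate (1427 at an unadjusted p under 0.05 by edgeR), and leaving out 1 library gave 835 to 1542, the lowest without LD replicate 28. Of the genes called, 51.9% were higher in ADV, against 65.7% with limma on log2(FPKM + 0.1) and 62.4% with library size alone. Whether the label numbers shared by LD and ADV pair the mice could not be settled. Over 14 pairs the correlation of deviations ran from -0.261 to 0.429 with a median of 0.0114. In all, 6 pairs were over 0.1, and 5 of 28 libraries correlated best with their own number. With the replicate block on those 28 libraries 494 genes passed, against 616 without it, and 253 with the block and the GC content trend removed. No Krüppel-like factor passed with the block. On these 28 libraries 3 members had an unadjusted p under 0.05 by edgeR with the block and 1 without it. The edgeR FDR with and without the block was 0.0924 and 0.260 for Klf2, 0.189 and 0.275 for Klf4, and 0.0944 and 0.116 for Klf9. Of 430 member values under the alternatives, 406 kept their direction and side of the threshold, 11 passed in addition and 13 changed sign, all of the last in members with small differences. The sign of Klf6 changed with the replicate block (-0.025), that of Klf3 with the GC content trend removed (0.028) and that of Klf13 under the clock score (0.016), and leaving out 1 library gave -0.0495 to 0.0258 for Klf3, -0.00143 to 0.130 for Klf11 and -0.0366 to 0.0980 for Klf6. The causes were not tested. Of the 60 relations with Dbp, Fos and Fkbp5, 8 passed by Pearson's r, 7 on TMM-scaled log2 CPM, 8 on log2(FPKM + 1) and 0 without the 2 farthest libraries. The spread between mice limits what can be seen: the 95% interval of Klf10, for example, ran from -0.23 to 0.60, and Klf5 rested on a mean of 82.6 reads per library.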
